A study of Mus musculus with 50 samples.

Results

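The 8 genes described here, Krt7, Krt19, Krt23, Sox9, Epcam, Spp1, Cd24a and Prom1, are used as markers of cholangiocytes (bile duct cells) and of liver progenitor cells. They are a fixed list of names, with no threshold on their values, and are 8 of the 45792 genes in the deposited count table, of which 29292 had a count in at least 1 library used. The list was chosen with earlier results of these data known. Its counts of calls, set beside the share over all genes, are therefore no test of the list. Each of the 8 genes passed the filter on low counts in each comparison below.

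Cholangiocytes line the bile ducts and form only a small share of the liver, so their transcripts are rare in whole tissue. When the liver is injured for a long time, small ducts and progenitor-like cells can multiply at the edge of the portal tracts, which is called a ductular reaction. Hepatocytes and liver cancer cells can also take up some of these markers, so that a transcript in whole tissue does not by itself name the cell that made it.

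Expression was measured by RNA sequencing of whole tissue pieces from male C3H/He mice aged 48 weeks, a strain that gets liver tumours with age. There were 12 non-tumour livers of control diet mice (N1 to N12), 11 non-tumour livers of mice on the ALIOS diet (N13 to N23) and 12 tumours of ALIOS fed mice that had no carcinogen, called spontaneous tumours below (T2 to T6 and T8 to T14). The remaining libraries were 1 spontaneous tumour of a control diet mouse (T7), 8 tumours of ALIOS fed mice given DEN (T15, T16 and T22 to T27) and 5 tumours of control diet mice given DEN (T17 to T21). The ALIOS diet models fast food, with high fat, trans-fat and fructose in the drinking water, and DEN is diethylnitrosamine, a liver carcinogen. No mouse given DEN contributed a non-tumour liver, so DEN and tumour cannot be told apart in the DEN comparisons. The labels do not say which tumour and which liver came from 1 mouse, nor whether DEN tumours shared a mouse, so the p-values measure the spread between libraries. A further library labelled as an ALIOS tumour, T1, was left out because it held kidney transcripts, with 1059419 reads of Kap, a gene of the kidney tubule.

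The 49 libraries held between 23798251 and 45751398 counted reads. Values are given as CPM (counts in every 1000000 reads, with library sizes adjusted by the TMM method). Intervals and errors in what follows come from the spread between libraries, and fewer cells of a type cannot be told apart from less RNA per cell. The liver label held in each library, since Alb, the albumin gene of hepatocytes, was at 47100 CPM or more. Mature bile duct transcripts were scarce, as Cftr, a chloride channel of cholangiocytes, had between 0 and 24 reads per library.

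Several libraries stood apart. T24, an ALIOS DEN tumour, held 3381 reads of Krt19, whereas the other 48 libraries had at most 107. In T24 the 8 matrix and fibroblast genes summed to 1194 CPM, the highest value in its group, and the 12 hepatocyte genes to 84880 CPM, the lowest in its group. T24 was at the end of its group for other lists too. Its biliary genes summed to 1980 CPM, the highest, and its endothelial genes to 82.9 CPM, the lowest. The liver N17 was the highest of the 11 ALIOS livers for all 8 genes, and its fibroblast sum of 530 CPM was also the highest of that group. The kidney gene Kap had 125 reads in the liver N22, 63 in N21, 56 in N23, 5 in N16 and 44 in the tumour T2. The Kap count of N22 was 0.0118% of that in T1. The same share of T1's Spp1 reads would be 1.05 reads, against the 2835 reads of Spp1 in N22. That share comes from Kap alone. Whether kidney transcripts added to the values of the 8 genes in these libraries was not tested. Kap and Umod, another kidney gene, were at 0 in all 13 DEN tumours and in T7.

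Levels of the 8 genes can be set side by side only per length, as CPM per kilobase of the longest coding transcript. In control livers Spp1 led with a median of 13.1 CPM per kilobase. Spp1 encodes osteopontin, a secreted phosphoprotein of the matrix. Sox9, a transcription factor of biliary development, followed at 0.661, with Cd24a at 0.568, Krt19 at 0.427 and Krt23 at 0.424. Epcam was at 0.232, Krt7 at 0.114 and Prom1 lowest at 0.0773 CPM per kilobase. Another length could change this order. All exons together have 7049 bases for Krt7 and 2580 for Cd24a, against 4094 and 1816 in the longest coding transcript. In spontaneous ALIOS tumours Spp1 was still first at 43.4, and Krt23 at 18 and Prom1 at 5.90 CPM per kilobase came next. The keratins Krt19 and Krt7 were at 0.420 and 0.137 CPM per kilobase there, near their levels in control livers. In ALIOS livers their medians were higher, at 0.748 and 0.171 CPM per kilobase.

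**Figure D1:**
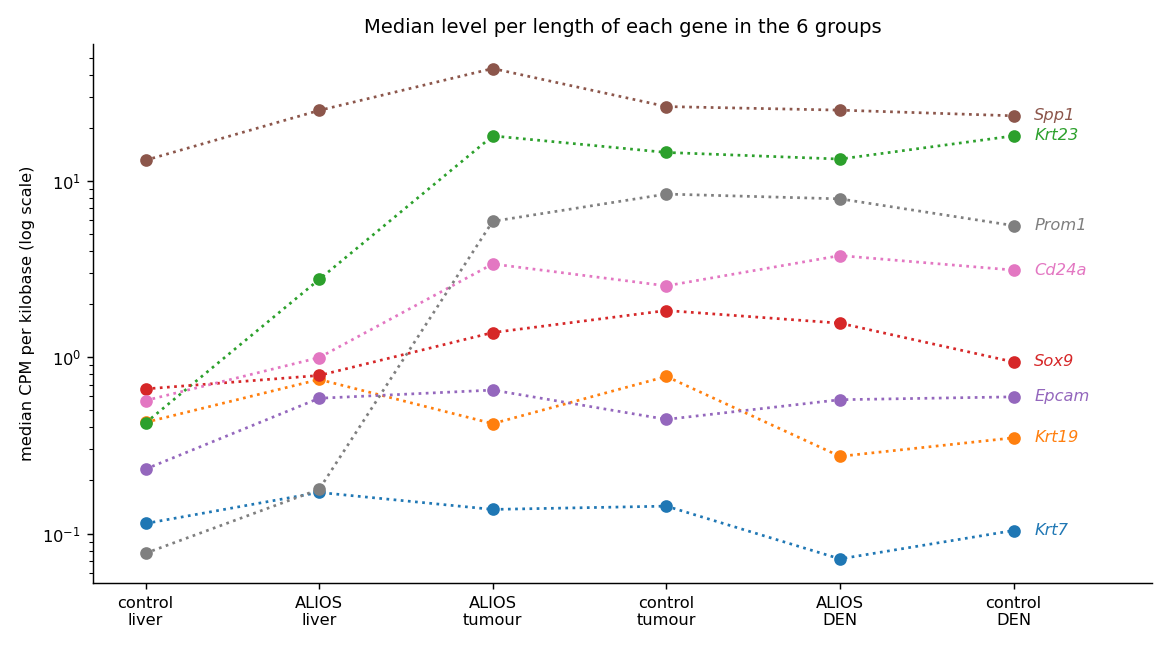
The y axis gives the median CPM per kilobase of coding transcript on a log scale, and the x axis the 6 groups, with 1 dotted line per gene. Prom1 moves from the lowest position in control livers (0.0773) to above Cd24a, Sox9, Epcam, Krt19 and Krt7 in the spontaneous ALIOS tumours (5.90), while Krt7 stays at or below 0.171 in all 6 groups.

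The first comparison asked what the ALIOS diet did in non-tumour liver (11 ALIOS livers minus 12 control livers). Krt23, Epcam, Spp1, Cd24a and Prom1 rose, by 2.46-fold to 4.44-fold, and Krt7, Krt19 and Sox9 did not pass the test. Fold changes and adjusted p-values are from the quasi-likelihood test of edgeR, adjusted by the Benjamini-Hochberg method across every gene tested, and a gene is called at an adjusted p under 0.05. Of the 13723 genes tested, 6.73% were called higher and 4.51% lower, against 5 and 0 of the 8 genes. The median log2 fold change was 1.305 over the 8 genes and -0.02 over all genes tested.

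Krt23, a type I keratin, ranged from 0.0986 to 3.09 CPM in control livers with a median of 0.664, and from 1.32 to 10.5 CPM in ALIOS livers with a median of 4.32. The groups overlapped, but 8 of the 11 ALIOS livers lay above the highest control liver. The log2 fold change was 2.15 ± 0.44 (SE, adjusted p = 0.00504). Epcam, an adhesion molecule of epithelia that in the healthy liver marks bile ducts, went from a median of 0.473 CPM (range 0.152 to 0.925) to 1.19 CPM (range 0.347 to 6.77). Its log2 fold change was 1.73 ± 0.42 (adjusted p = 0.0125), with 7 of 11 ALIOS livers above all control livers.

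Spp1 had a median of 19.8 CPM (range 4.76 to 44.6) in control livers and 37.8 CPM (range 10.6 to 203) in ALIOS livers. Its log2 fold change was 1.33 ± 0.40 (adjusted p = 0.0343). Only 3 of 11 ALIOS livers lay above the highest control liver, although 10 of 11 lay above the control median. Cd24a, a small glycoprotein anchored in the outer membrane, rose from a median of 1.03 to 1.81 CPM, with a log2 fold change of 1.30 ± 0.37 (adjusted p = 0.0275). Prom1, which encodes the membrane glycoprotein CD133, rose from a median of 0.316 to 0.728 CPM, with a log2 fold change of 1.31 ± 0.41 (adjusted p = 0.0420). All 11 ALIOS livers lay above the control median for Prom1.

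Krt7 and Krt19, keratins of mature bile ducts, and Sox9 had smaller differences with intervals that reached 0. Krt7 had a median of 0.465 CPM in control and 0.701 CPM in ALIOS livers (log2 fold change 0.70, 95% interval -0.05 to 1.44, adjusted p = 0.205). Krt19 had medians of 0.672 and 1.18 CPM (log2 fold change 0.61, interval -0.18 to 1.39, adjusted p = 0.3). Sox9 was nearly level at 2.74 and 3.26 CPM (log2 fold change 0.12, interval -0.31 to 0.56, adjusted p = 0.743).

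Some of the calls in liver were lost when 1 library was left out. Without N17 the log2 fold changes were 0.87 for Spp1 (adjusted p = 0.111), 0.96 for Cd24a (adjusted p = 0.0794) and 0.99 for Prom1 (adjusted p = 0.114), which left Krt23 at 1.96 (adjusted p = 0.0117) and Epcam at 1.22 (adjusted p = 0.0313) as the 2 called genes. Leaving out N22 left the same 2 called genes, with Spp1 at 1.19, Cd24a at 1.13 and Prom1 at 1.22, and leaving out N1 or N4 ended the calls of Spp1 and Prom1. The Prom1 call was lost on leaving out any of 13 of the 23 livers, and without the count filter (adjusted p = 0.0566). In a single fit of all 6 groups Spp1 (adjusted p = 0.0644), Cd24a (adjusted p = 0.103) and Prom1 (adjusted p = 0.127) were not called.

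Among 28 other biliary genes, 20 could be tested and 4 rose with the diet (median log2 fold change 0.41, against -0.02 over all genes tested). Krt8, a keratin of simple epithelia and of hepatocytes, rose by 0.69 ± 0.13 (log2, adjusted p = 0.00296), Spint1, a membrane protease inhibitor, by 1.85 ± 0.45, and Tspan8, a tetraspanin, by 1.58 ± 0.48. A list of 18 progenitor signalling genes held mostly YAP, TEAD and TWEAK pathway genes, linked to ductular reactions, with Lgr5, Foxl1, Dlk1 and Igfbp3 added, and 6 of its 15 tested rose, led by Tead1 (0.68 ± 0.13), Ajuba (0.79 ± 0.16) and Axl (0.76 ± 0.16). Among 14 partners of the member proteins 6 of 12 tested rose. They were Krt8, Tspan8, the transcription factor Sox4 (1.61 ± 0.36), and Cd44 (1.25 ± 0.30), Itga9 (0.47 ± 0.10) and Itga4 (0.94 ± 0.30), which encode receptors or receptor subunits for osteopontin. Without N17, 2 biliary genes, 5 progenitor signalling genes and 4 partners were called, with Tspan8 at 1.11 (adjusted p = 0.108) and Itga4 at 0.79 (adjusted p = 0.106).

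Markers of other cells moved beside them. Of the 12 macrophage genes 9 rose, and their sum went from 206 to 504 CPM in control livers to 291 to 1030 CPM in ALIOS livers. Adgre1 rose by 1.01 ± 0.24 and Cd68 by 0.79 ± 0.18 (log2). Since macrophages also make osteopontin, these values stand beside that of Spp1. Of 8 fibroblast genes 3 rose (sum 121 to 258 CPM in control and 172 to 530 CPM in ALIOS livers), with Col1a2 up by 1.30 ± 0.41, and Col1a1 at 1.70 ± 0.64 (adjusted p = 0.0812). Without N17, 7 macrophage genes were called and none of the 3 fibroblast calls held, with Col1a2 at 0.73 (adjusted p = 0.152). In the B cell list 1 of 3 tested rose, and in the pancreas list the 1 gene tested fell. None of 12 hepatocyte, 6 endothelial, 4 neutrophil, 3 erythroid and 2 gut or gallbladder genes tested was called, and no kidney gene passed the filter. What part these cells had in the differences was not tested.

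**Figure D2:**
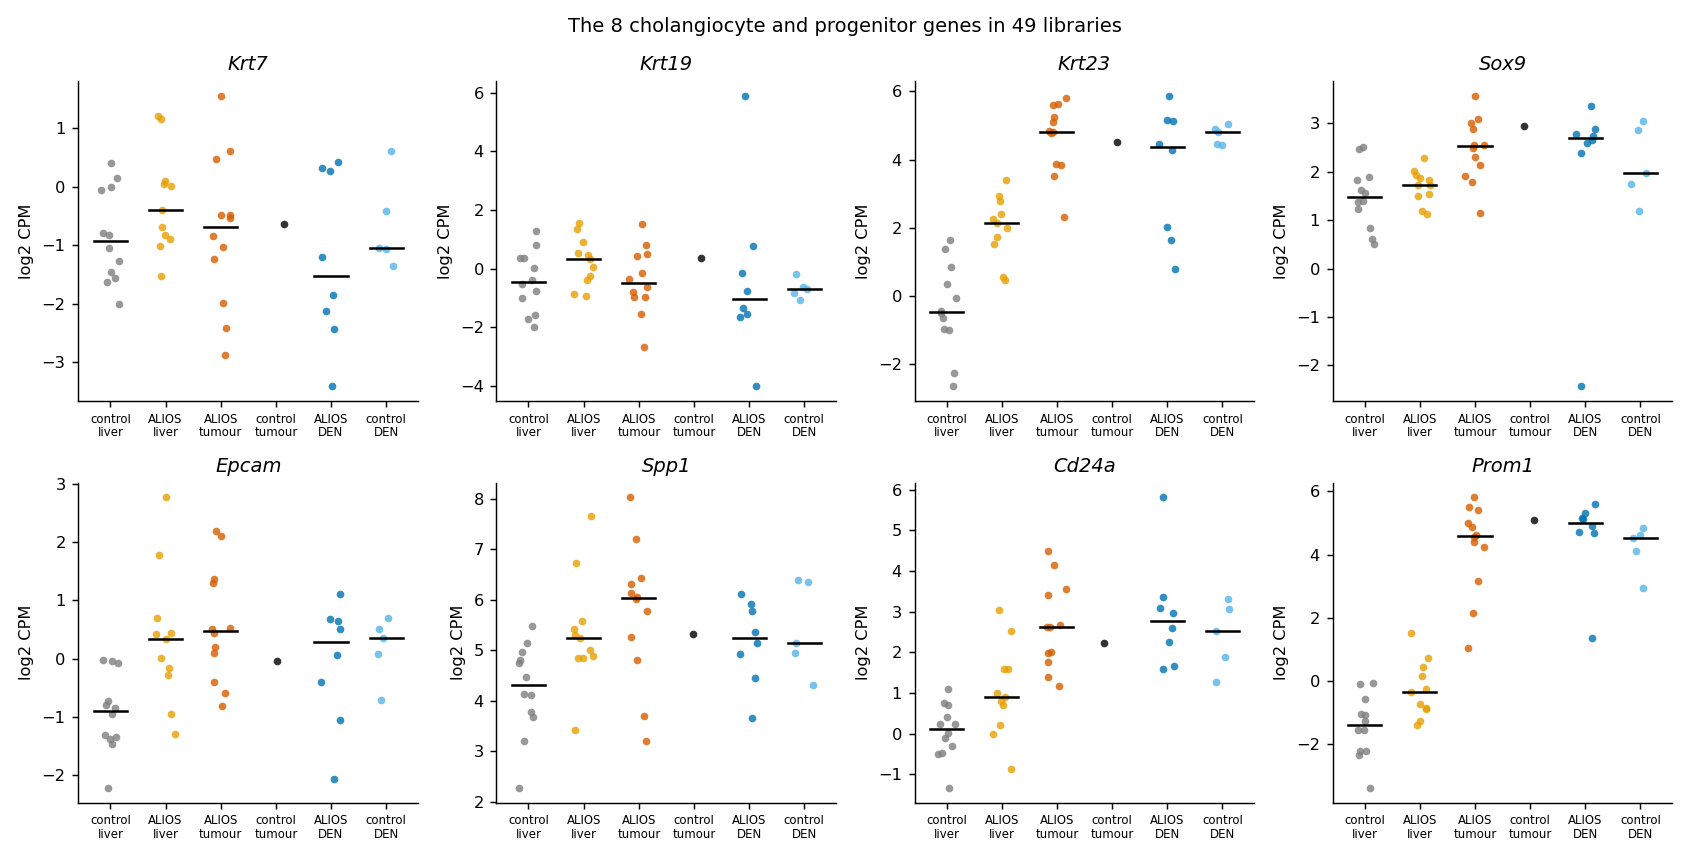
Each panel gives 1 gene, with log2 CPM on the y axis, the 6 groups on the x axis, a point per library and a bar at each group's median. For Krt23 the medians step from control liver (0.664 CPM) to ALIOS liver (4.32 CPM) to spontaneous ALIOS tumour (28.1 CPM), while for Krt7 and Krt19 the groups overlap throughout, apart from Krt19 in T24 at 59.7 CPM.

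The second comparison set the 12 spontaneous tumours of ALIOS fed mice against the 11 ALIOS livers. Prom1, Krt23, Cd24a and Sox9 rose, Prom1 by far the most among the 8 genes, and none of the 8 fell. Of 14183 genes tested 26.9% were called higher and 25.9% lower, so 4 calls in 8 genes stand against that share. The 8 genes had a median log2 fold change of 0.635. The 4 genes called were all still called on leaving out each tumour in turn.

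Prom1 ranged from 0.316 to 2.81 CPM in ALIOS livers with a median of 0.728, and from 1.97 to 56.3 CPM in the tumours with a median of 24.1. A single tumour, T2, lay within the range of the livers. The log2 fold change was 4.74 ± 0.50 (adjusted p = 1.95e-07), a 26.7-fold difference. Krt23 went from a median of 4.32 CPM to 28.1 CPM, and 11 of 12 tumours, all but T2 at 4.96 CPM, lay above the highest liver at 10.5 CPM. Its log2 fold change was 2.62 ± 0.38 (adjusted p = 5.98e-06).

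Cd24a had a median of 1.81 CPM (range 0.487 to 8.09) in livers and 6.13 CPM (range 2.21 to 22.2) in tumours, with a log2 fold change of 1.58 ± 0.45 (adjusted p = 0.00517). All 12 tumours lay above the liver median, and 4 of them above N17, the highest liver. Sox9 had a median of 3.26 CPM (range 2.12 to 4.82) in livers and 5.70 CPM (range 2.17 to 11.9) in tumours. The log2 fold change of Sox9 was 0.83 ± 0.22 (adjusted p = 0.00258), and 8 of 12 tumours lay above all livers.

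The other 4 genes differed by less than the spread between libraries. Epcam had medians of 1.19 and 1.33 CPM (log2 fold change 0.04, interval -0.90 to 0.98). Spp1 had medians of 37.8 and 65.4 CPM and reached 261 CPM in T10 and 147 CPM in T6, but the tumours also held the lowest value of both groups, 9.16 CPM in T8 (log2 fold change 0.44, interval -0.55 to 1.43). The bile duct keratins were at medians of 0.562 CPM for Krt7 (log2 fold change -0.31, interval -1.28 to 0.66) and 0.661 CPM for Krt19 (log2 fold change -0.54, interval -1.39 to 0.30) in tumours.

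The library T7, the only spontaneous tumour of a control diet mouse, has no replicate and was not tested. It held 34.4 CPM of Prom1, 22.7 of Krt23, 7.62 of Sox9 and 4.61 of Cd24a, each above the 12 control livers. Its Krt7 (0.584 CPM), Krt19 (1.23 CPM), Epcam (0.905 CPM) and Spp1 (39.8 CPM) lay within the range of those livers.

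The stretches upstream of Krt23 and Prom1 are shown because these genes had the highest fold changes of the 8 in spontaneous tumours and in control diet DEN tumours. They are from RefSeq on the GRCm38.p6 build, 5′ to 3′ on the gene's strand, and leave out bases in annotated exons of the gene. The windows of 250 bases before each start were searched on both strands for the letters TGANTCA (AP-1), GGAATG (TEAD) and GGGCGG (SP1), and matches of AP-1 are in capitals. The first line is the Krt23 stretch at chr11:99493138-99493370, on the minus strand, the next the Prom1 stretch at chr5:44094769-44095018, also minus, before a start inside the annotated gene. The last is 27 bases at chr5:44101808-44101834 before the outer Prom1 start, given short because that whole window lies in annotated Prom1 exons.
Krt23: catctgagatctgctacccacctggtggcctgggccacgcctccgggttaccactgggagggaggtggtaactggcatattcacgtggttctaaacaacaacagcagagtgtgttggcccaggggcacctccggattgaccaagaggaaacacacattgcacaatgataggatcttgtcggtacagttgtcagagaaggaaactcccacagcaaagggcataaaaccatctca
Prom1, inner start: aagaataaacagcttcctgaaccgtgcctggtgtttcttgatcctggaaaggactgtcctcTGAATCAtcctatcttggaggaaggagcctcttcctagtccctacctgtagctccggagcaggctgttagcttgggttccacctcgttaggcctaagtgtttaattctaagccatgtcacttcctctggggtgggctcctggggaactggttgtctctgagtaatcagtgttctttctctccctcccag
Prom1, outer start: cccgtggtccTGACTCAggcaccctta
Each Prom1 window held 1 AP-1 match, and the outer one also 1 SP1 match. The Krt23 window held none of these motifs. Of 32851 such windows in the table, 6.749% held the AP-1 letters, 12.642% the TEAD letters, 32.742% the SP1 letters and 6.432% the HNF1 letters. A match describes letters only, and no binding was measured.

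Other biliary genes went both ways in the spontaneous tumours. Of 23 tested 9 rose and 3 fell (median log2 fold change 0.02, against 0.01 over all genes tested). Cdh1, the E-cadherin of epithelial junctions, rose by 3.32 ± 0.42, Tspan8 by 6.01 ± 0.82 and Bicc1, an RNA-binding protein, by 2.38 ± 0.35 (log2). Onecut1 (-1.27 ± 0.40) and Onecut2 (-1.06 ± 0.44), transcription factors of biliary development, and the water channel Aqp1 (-0.50 ± 0.21) fell. Of 16 progenitor signalling genes 10 rose and none fell, led by Tnfrsf12a, the TWEAK receptor (3.47 ± 0.36), Ajuba (2.82 ± 0.31) and Tead2 (1.74 ± 0.25). Of 13 partners 5 rose, namely Tspan8, Sox4 (2.90 ± 0.46), the claudin Cldn7 (2.92 ± 0.49), Krt18 (0.76 ± 0.20) and the osteopontin receptor subunit Itgav (0.51 ± 0.15).

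Markers of other cells differed as well. Of 12 macrophage genes 6 fell and 1 rose, with sums of 103 to 556 CPM in tumours, and Adgre1 fell by 0.99 (log2, SE 0.34). Of 12 hepatocyte genes 5 fell and 2 rose, the latter Alb (0.79 ± 0.20) and Apoa1 (0.61 ± 0.19), with sums of 86000 to 244000 CPM in tumours and 87000 to 153000 CPM in livers. The fibroblast list had 1 higher and 2 lower of 8 and the endothelial list 1 higher, Pecam1 (0.81 ± 0.19), and 1 lower of 6. Of 3 erythroid genes tested 1 fell, of 3 gut or gallbladder genes 2 rose, Vil1 by 2.73 ± 0.60, and 1 fell, and none of the B cell (3), neutrophil (3) and pancreas (1) genes tested was called. Cdx2, an intestinal transcription factor, was at 0 in all 49 libraries, and the pancreas gene Cpa1 had at most 4 reads. No kidney gene passed the filter. The 8 kidney genes summed to 0.252 to 22 CPM in these tumours and to 0.0319 to 6.14 CPM in ALIOS livers. The part of these cells in the members' differences was not tested.

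**Figure D3:**
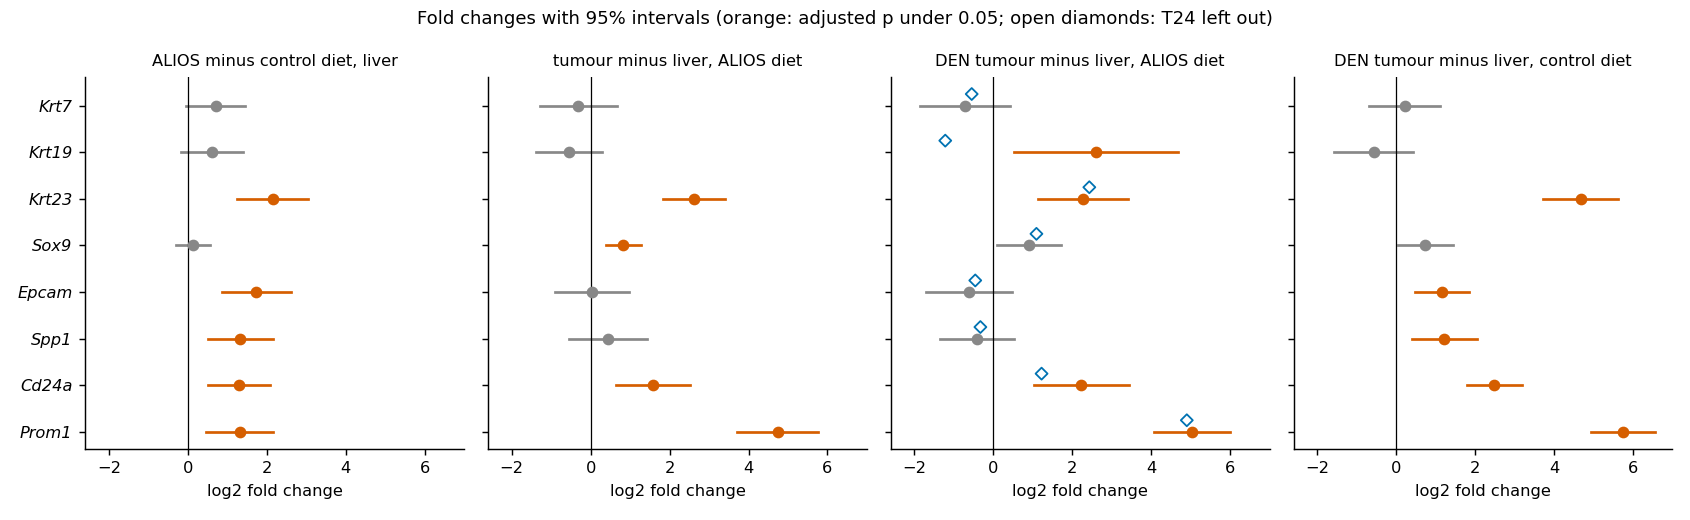
Points give the log2 fold change of each gene (x axis) with its 95% interval in 4 comparisons, orange where the adjusted p was under 0.05, and open diamonds give the DEN comparison on the ALIOS diet without T24. Prom1 lies farthest right in the 3 tumour panels (4.74, 5.03 and 5.75), and Krt19 moves from 2.60 to -1.22 when T24 is left out.

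The third comparison set the 8 DEN tumours of ALIOS fed mice against the same 11 ALIOS livers, so both comparisons share their controls. Prom1, Krt23, Cd24a and Krt19 were called higher, but the Krt19 call was lost without T24. Of 14434 genes tested 27.7% were called higher and 19.8% lower, against 4 and 0 of the 8 genes, whose median log2 fold change was 1.565.

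Prom1 ranged from 2.51 to 48.5 CPM with a median of 32.3. Of the 8 DEN tumours 7 lay above all livers, and T23 at 2.51 CPM lay among them. The log2 fold change was 5.03 ± 0.46 (adjusted p = 1.30e-07). Krt23 had a median of 20.8 CPM but was split, with T22, T27, T15, T26 and T16 between 19.5 and 58.7 CPM and T25, T24 and T23 at 4.01, 3.05 and 1.69 CPM, below the liver median. Its log2 fold change was 2.26 ± 0.55 (adjusted p = 0.00222).

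Cd24a was at 56.1 CPM in T24 and at 2.93 to 10.1 CPM in the other 7 tumours. The log2 fold change of 2.23 ± 0.58 (adjusted p = 0.00367) became 1.22 without T24 (adjusted p = 0.0244), and all 8 tumours lay above the liver median. Krt19 was at 59.7 CPM in T24, at 0 reads in T16 and at no more than 1.66 CPM in the other 6. With T24 its log2 fold change was 2.60 ± 0.99 (adjusted p = 0.0370), and without it -1.22 (adjusted p = 0.0648). DESeq2, which by default replaces an outlying count and here put 54 in place of T24's 3381, gave -1.13 (adjusted p = 0.0446).

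Sox9 was at 5.17 to 10.2 CPM in 7 of the tumours, all above the highest liver at 4.82 CPM, and at 0.124 CPM in T24, below every liver. Over all 8 its log2 fold change was 0.90 ± 0.38 (adjusted p = 0.0596), and without T24 1.09 (adjusted p = 1.81e-05). With all 8 tumours it was called by DESeq2 (adjusted p = 0.0479), with library totals (adjusted p = 0.0346) and in the fit of all 6 groups (adjusted p = 0.0422). Epcam (-0.63, interval -1.72 to 0.47), Spp1 (-0.42, interval -1.36 to 0.51) and Krt7 (-0.71, interval -1.86 to 0.43) did not pass the test. In T24 Epcam was at 0.177 CPM and Krt7 at 0.124 CPM, so the 8 genes did not move together in that tumour.

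Among the other biliary genes 8 of 23 tested rose and 3 fell (median log2 fold change -0.22, against 0.08 over all genes tested). Cdh1 rose by 3.46 ± 0.39, Tspan8 by 6.71 ± 0.76 and Bicc1 by 2.14 ± 0.37, while Onecut2 (-0.96 ± 0.27), the chloride channel Ano1 (-0.84 ± 0.31) and Aqp1 (-0.48 ± 0.18) fell. Of 16 progenitor signalling genes 9 rose, led by Tnfrsf12a (3.47 ± 0.24), Ajuba (2.77 ± 0.26) and Tead2 (1.38 ± 0.22). Of 13 partners 7 rose and 1 fell. The risers were Tspan8, Itgav (0.77 ± 0.15), Sox4 (2.16 ± 0.46), Cldn7 (2.58 ± 0.59), Krt18 (0.89 ± 0.21), Itgb1 (0.34 ± 0.12) and Cd44 (1.49 ± 0.54), and Itga9 fell (-0.51 ± 0.16). Cd44 was at 95.8 CPM in T24, and without T24 its log2 fold change was 0.31 (adjusted p = 0.466). Without T24 Aqp1 was at -0.41 (adjusted p = 0.0657), and 9 biliary genes, 8 progenitor signalling genes and 6 partners were called higher.

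The fibroblast list had 3 higher and 3 lower of 8, with Col1a1 up by 3.48 and sums of 86.9 to 1190 CPM, the highest in T24. Without T24 it had 1 higher and 3 lower, with Col1a1 at 0.67 (adjusted p = 0.414). Of 12 macrophage genes 2 rose and 2 fell, of 12 hepatocyte genes 2 rose and 4 fell, and of 6 endothelial genes 2 rose and 1 fell. Without T24, 1 macrophage gene was higher and 5 lower. Of the few genes tested in the other lists, the erythroid list had 1 higher and 1 lower of 3, the pancreas list 1 higher of 1 and the gut or gallbladder list 1 higher of 3, Vil1 at 4.07 ± 0.69. Vil1 was at 28.8 CPM in T24, and without T24 its log2 fold change was 3.01 ± 0.54 (adjusted p = 0.000144). None of 4 B cell and 4 neutrophil genes was called. No kidney gene passed the filter with T24 in, and the 8 kidney genes summed to 0.159 to 16.2 CPM in these tumours. Without T24 the kidney gene Slc12a1 could be tested and was higher by 9.95 ± 0.81 (log2, adjusted p = 4.63e-08).

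The fourth comparison did the same on the control diet, with 5 DEN tumours against 12 control livers. Prom1, Krt23, Cd24a, Spp1 and Epcam rose. Of 14731 genes tested 27.3% were called higher and 24.4% lower, against 5 and 0 of the 8 genes, whose median log2 fold change was 1.19.

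Prom1 was at 28.8 CPM in T17, 24.6 in T20, 22.8 in T19, 17.2 in T18 and 7.57 in T21, and at no more than 0.882 CPM in the control livers. All 5 tumours lay far above the livers, with a log2 fold change of 5.75 ± 0.39 (adjusted p = 5.26e-10), which is 53.8-fold. Krt23 was at 22.04 CPM in T17, 30.01 in T18, 21.6 in T19, 32.8 in T20 and 28.1 in T21, against 3.09 CPM in the highest control liver. These 5 tumours were close to each other, and the log2 fold change was 4.68 ± 0.46 (adjusted p = 8.36e-08).

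Cd24a was at 9.87 CPM in T17, 8.37 in T18, 5.67 in T19, 3.62 in T20 and 2.35 in T21, above the highest control liver at 2.09 CPM (log2 fold change 2.49 ± 0.33, adjusted p = 3.71e-06). Spp1 was at 81.8 CPM in T17, 84.0 in T18, 30.7 in T19, 35.2 in T20 and 19.9 in T21. T17 and T18 lay above all control livers, and the log2 fold change of 1.22 ± 0.40 (adjusted p = 0.0142) was 0.98 without T17 (adjusted p = 0.0659) and 0.95 without T18 (adjusted p = 0.0712). Epcam was between 0.550 and 1.56 CPM, with 4 of 5 tumours above all control livers (log2 fold change 1.16 ± 0.33, adjusted p = 0.00633). In a single fit of all 6 groups neither Epcam (adjusted p = 0.0717) nor Spp1 (adjusted p = 0.0586) was called.

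Sox9 was at 8.18 CPM in T17, 7.27 in T18, 3.89 in T19, 3.30 in T20 and 2.22 in T21. Its log2 fold change was 0.74 ± 0.33 (adjusted p = 0.0673), and 0.91 (adjusted p = 0.0275) without T21, the lowest. It was also called with library totals in place of TMM (adjusted p = 0.0443). Krt7 (0.22, interval -0.68 to 1.12) and Krt19 (-0.57, interval -1.57 to 0.43) did not pass the test, and all 5 tumours lay below the highest control liver for Krt19.

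Of 23 other biliary genes 10 rose and 3 fell (median log2 fold change 0.25, against 0.03 over all genes tested). Tspan8 rose by 8.19 ± 0.37, Bicc1 by 2.80 ± 0.14 and the membrane protease St14 by 5.32 ± 0.35, while Onecut2 (-3.26 ± 0.30), Dcdc2a (-0.82 ± 0.28) and Aqp1 (-0.52 ± 0.20) fell. Of 15 progenitor signalling genes 10 rose, led by Ajuba (4.13 ± 0.16), Tnfrsf12a (4.33 ± 0.18) and Tead2 (2.37 ± 0.19), and Lgr5, a Wnt target and stem cell receptor, fell (-2.16 ± 0.46). Of 14 partners 11 rose. They were Tspan8, Sox4 (4.42 ± 0.36), Cldn7 (4.09 ± 0.39), Krt18 (1.54 ± 0.18), Itgb1 (0.64 ± 0.11), Krt8 (0.74 ± 0.13), Itgav (0.57 ± 0.12), Itgb5 (0.32 ± 0.08), Itga4 (1.32 ± 0.36), Cd44 (1.08 ± 0.35) and Siglecg (1.15 ± 0.35), the receptor of the Cd24a protein on immune cells.

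Of the 8 fibroblast genes 5 rose and 2 fell, with Col1a1 up by 4.29 ± 0.60 and sums of 97.0 to 546 CPM. Of 12 macrophage genes 5 rose and 3 fell, of 12 hepatocyte genes 2 rose and 4 fell, and of 6 endothelial genes 2 rose and 2 fell. The erythroid list had 2 higher and 1 lower of 3, and the gut or gallbladder list 2 higher of 3. The 1 kidney list gene that could be tested, Slc12a1, rose by 9.98 (log2), while Kap and Umod were at 0 in these tumours. The 8 kidney genes summed to 4.75 to 18.6 CPM in these tumours and to 0 to 0.26 CPM in control livers. None of 5 B cell, 4 neutrophil and 1 pancreas genes was called.

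**Figure D4:**
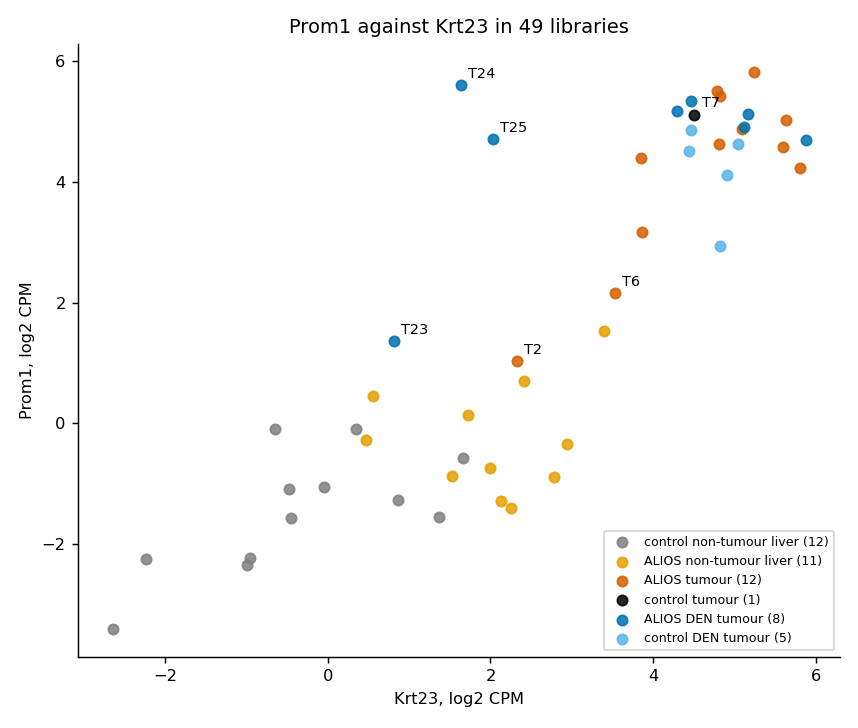
Each point is 1 of 49 libraries, with log2 CPM of Krt23 on the x axis and of Prom1 on the y axis, coloured by group. Most tumours form a cloud at the upper right, T23 and T2 lie with the livers, and T24 and T25 have tumour levels of Prom1 (48.5 and 26.1 CPM) with liver levels of Krt23 (3.05 and 4.01 CPM).

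Tumours of different kinds were then set against each other. The 8 ALIOS DEN tumours against the 12 spontaneous ALIOS tumours gave 0 calls among the 8 genes, and among all 14845 genes 0% were called higher and 0% lower. At an unadjusted p under 0.05 there were 1079 genes, and DESeq2 called 75. The intervals were wide. That of Prom1 was -0.77 to 1.24, that of Sox9 -0.85 to 0.87 and that of Krt23 -1.54 to 0.72 on the log2 scale. Krt19 had the largest value, 3.13 ± 1.01 (adjusted p = 0.304), and -0.74 without T24. Within a fit of all 6 groups Krt19 was called (3.13, adjusted p = 0.0124), again with T24 in it. None of the 13 lists held a call in the fit of these groups alone.

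The 8 ALIOS DEN tumours against the 5 control diet DEN tumours also gave 0 calls among the 8 genes. Among 14944 genes tested 0% were called higher and 0.0134% lower, 1273 had an unadjusted p under 0.05 and DESeq2 called 155. Prom1 had a log2 fold change of 0.61 (interval -0.44 to 1.65), Krt23 of -0.26 (interval -1.70 to 1.17), Cd24a of 1.07 (interval -0.48 to 2.62) and Spp1 of -0.32 (interval -1.22 to 0.59). None of the 13 lists held a call.

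The last comparison tested whether the DEN tumour minus liver difference itself differed between the diets. It shares all its libraries with those above. Of 15606 genes tested 1.04% were called higher and 1.23% lower, and 0 of the 8 genes were called by edgeR. Krt23 came closest, with a difference of -2.41 ± 0.77 (log2, adjusted p = 0.0845), that is 2.26 on the ALIOS diet against 4.68 on the control diet. ALIOS minus control, Krt23 was at 2.15 in the livers and at -0.26 in the DEN tumours, in the comparisons above. The Krt23 diet difference was called by DESeq2 (-2.43, adjusted p = 0.0449) and without T22 (-2.80, adjusted p = 0.0343). Epcam (-1.78 ± 0.67, adjusted p = 0.149) and Spp1 (-1.64 ± 0.63, adjusted p = 0.167) were also below 0 and were not called, and at an unadjusted p under 0.05 there were 2617 genes. In the lists, Onecut2 (2.31 ± 0.39) and Lgr5 (3.68 ± 0.99) were higher and St14 (-2.70 ± 0.76) and Ajuba (-1.35 ± 0.32) lower in this difference, 1 of 12 macrophage genes was lower, and none of the partners or of the other lists was called. Lgr5 was at 43.7 CPM in T24, and without T24 its difference was 2.27 (adjusted p = 0.0805). Without T24, 3 partners, 3 fibroblast genes and 3 macrophage genes were lower, with Sox4 at -2.14 (adjusted p = 0.0451), Krt18 at -0.89 (adjusted p = 0.0408) and Krt8 at -0.70 (adjusted p = 0.0422).

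Whether the 8 genes vary together was then looked at among the libraries of 1 group, over 28 pairs in each of 3 groups and 84 pairs in all. A pair was called when the permutation p of both Pearson's r and Spearman's rho, adjusted over the 84 pairs, was under 0.05. In control livers (n = 12) 6 pairs were called, in ALIOS livers (n = 11) 4 and in spontaneous ALIOS tumours (n = 12) 2, and all 12 called pairs had a positive r. The median r over the pairs was 0.471, 0.722 and 0.289 in these groups. Differences between groups in r were not tested, and Krt7, Krt19, Krt23, Epcam and Prom1 had under 10 reads in some control livers.

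In control livers Epcam and Cd24a varied together the most (r = 0.928, permutation p = 5e-05, adjusted p = 0.00252, rho = 0.839, p = 0.00123, adjusted p = 0.0235). Without the 2 libraries farthest from the median of Epcam, N1 and N3, r was 0.869. Spp1 and Prom1 followed (r = 0.905, permutation p = 6e-05, adjusted p = 0.00252, rho = 0.853, p = 0.00079, adjusted p = 0.0221, and r = 0.786 without the 2 farthest). In ALIOS livers Spp1 and Cd24a had r = 0.932 (permutation p = 9e-05, adjusted p = 0.00252, rho = 0.855, p = 0.0014, adjusted p = 0.0235) and r = 0.825 without N17 and N13. Epcam and Spp1 had r = 0.927 there (permutation p = 0.00026, adjusted p = 0.00538, rho = 0.918, p = 0.00019, adjusted p = 0.0101) and 0.961 without N17 and N16. The pairs named so far are among Epcam, Spp1, Cd24a and Prom1. The other called pairs in ALIOS livers held Sox9. With Epcam it had r = 0.885 (permutation p = 0.00041, adjusted p = 0.00574, rho = 0.827, p = 0.00305, adjusted p = 0.0427). With Spp1 it had r = 0.837 (permutation p = 0.00174, adjusted p = 0.0133, rho = 0.800, p = 0.0046, adjusted p = 0.0428). Without N13 and N17 r was 0.799 with Epcam and 0.574 with Spp1.

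The keratins of bile ducts paired with each other. Krt7 and Krt19 had r = 0.840 in spontaneous ALIOS tumours (permutation p = 0.00085, adjusted p = 0.00793, rho = 0.783, p = 0.00379, adjusted p = 0.0428, and r = 0.849 without T10 and T4). In control livers they had r = 0.689 (permutation p = 0.0145, adjusted p = 0.0444, rho = 0.755, p = 0.0059, adjusted p = 0.0440, and r = 0.649 without the 2 farthest). In ALIOS livers r was 0.738 (permutation p = 0.0101, adjusted p = 0.0354) and rho 0.745 (p = 0.0106, adjusted p = 0.0596), so the pair was not called there. Without N17 and N22 its r was 0.369. The second called pair in tumours was Epcam and Spp1 (r = 0.834, permutation p = 0.00077, adjusted p = 0.00793, rho = 0.755, p = 0.00628, adjusted p = 0.0440, and r = 0.698 without T10 and T6).

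Krt23 and Prom1 had r = 0.814 in the tumours (permutation p = 0.0024, adjusted p = 0.0156), but rho was 0.497 (permutation p = 0.104, adjusted p = 0.225) and r was 0.402 without T2 and T6, so that relation rested on 2 tumours low in both. Krt19 and Krt23 had r = -0.658 (permutation p = 0.0202, adjusted p = 0.0529) and rho = -0.671 (permutation p = 0.0200) and were not called. The relations were not recomputed within sequencing lanes, which the labels do not give.

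**Figure D5:**
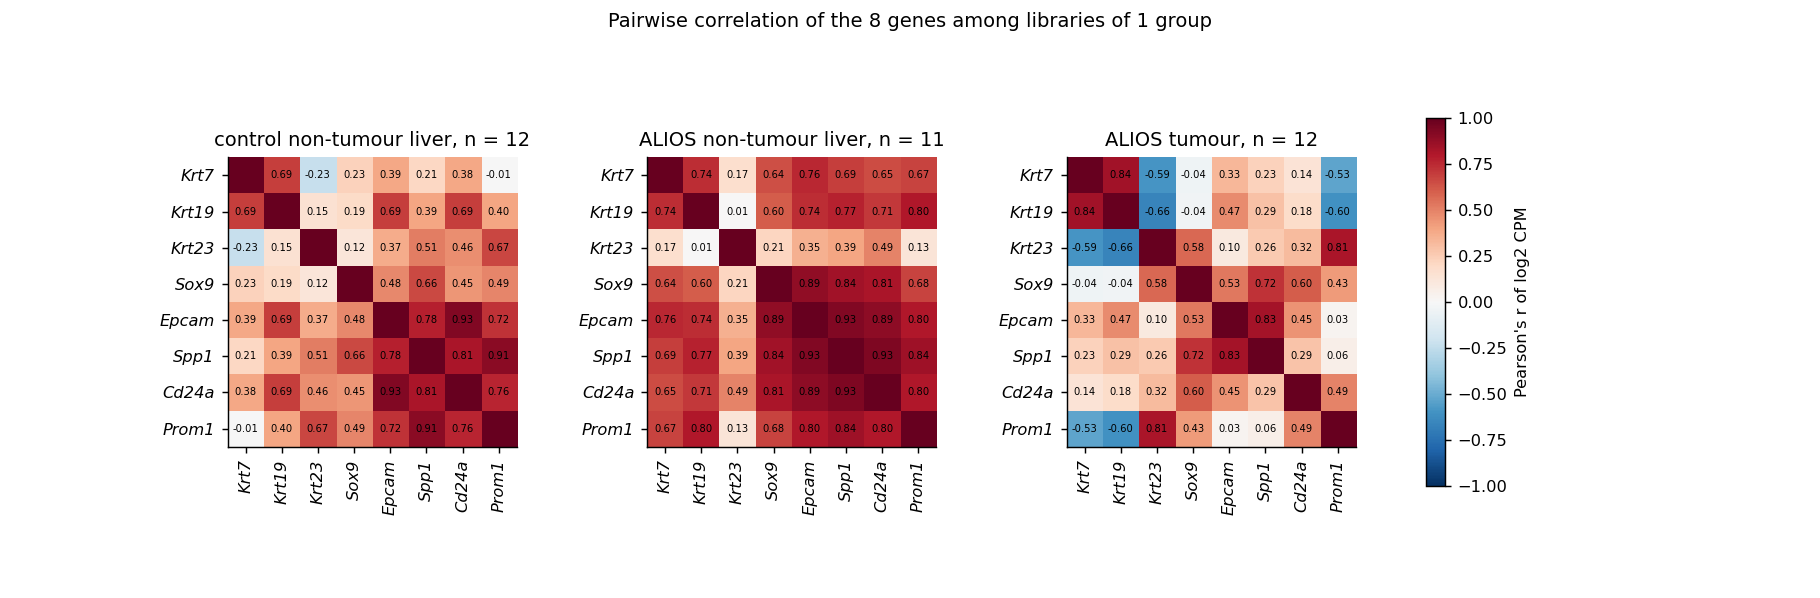
Each square gives Pearson's r of log2 CPM for a pair of the 8 genes, from blue (negative) to red (positive), in control livers, ALIOS livers and spontaneous ALIOS tumours. The block of Epcam, Spp1, Cd24a and Prom1 runs from 0.72 to 0.93 in both liver groups, and not all of its pairs were called. In ALIOS livers Sox9 is at 0.885 with Epcam and 0.837 with Spp1. In tumours Krt7 and Krt19 pair at 0.84 and are at or below 0.18 with Cd24a.

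As a description, the genes most like each member were found among 14636 genes (mean count 10 or more), by Pearson's r of log2 CPM centred on the group mean over 48 libraries. The libraries share depth and tissue makeup, and no test was made. Prom1 was most like Tspan8 (r = 0.837), Klc3 (0.810) and Elovl7 (0.787). Krt23 was most like Ces2e (0.819), Gprc5b (0.817) and Acsl5 (0.780). Epcam was most like Scara3 (0.856), Foxj1 (0.852) and Spp1 (0.806), and Spp1 like Tmem45a (0.844), Ehf (0.832), an epithelial transcription factor, and Epcam. Cd24a was most like Cx3cl1 (0.878), Anxa3 (0.856) and Mfge8 (0.851).

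For Krt19, Sox9, Krt7, Cd24a and Krt23 some of the nearest genes depended on T24. Krt19 was most like Sema3c (0.843), Pla2g5 (0.830) and Col23a1 (0.825) with T24 in, and most like Krt7 (0.801), Fxyd3 (0.747) and Kif12 (0.725) without it. Sox9 was most like Gldc (0.848), Cfhr2 (0.817) and Tdo2 (0.799) with T24, genes of hepatocytes, and most like Spp1 (0.674), Fbxo25 (0.656) and Tmem45a (0.655) without it. Krt7 was most like Msln (0.672), Loxl1 (0.670) and Adamtsl2 (0.661) with T24, and most like Krt19, Sema3c and Loxl1 without it. Without T24 Cd24a kept Cx3cl1 (0.843) first, followed by Ddit4l (0.818) and Slc25a24 (0.813), and Abcb1a (0.796) took the place of Acsl5 for Krt23.

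In the Gencode version M21 annotation of GRCm38, 3 of the genes lie on chromosome 11, namely Krt23 (chr11:99477974-99493137, minus strand), Krt19 (chr11:100140810-100148665, minus) and Sox9 (chr11:112782224-112787760, plus). Spp1 (chr5:104435118-104441050, plus) and Prom1 (chr5:43993620-44102032, minus) are on chromosome 5. Krt7 is at chr15:101411043-101430313 (plus), Epcam at chr17:87635979-87651129 (plus) and Cd24a at chr10:43578284-43584265 (plus). Reads were counted over all exons of a gene. Exons of Spp1 overlap 309 bases of Gm42793 on the same strand, those of Prom1 overlap 424 bases of Gm16401 and those of Krt7 overlap 77 bases of Gm671, both on the opposite strand. Of the 50-base stretches of the Spp1 transcripts 11.591% also occur in Gm42793, as do 5.099% of those of Prom1 and 0.916% of those of Krt7 in various genes and 2.749% of those of Cd24a in Gm6212, so the counts of these genes could be split with another gene. Among the list genes named above, Sox4, Itga4, Itgav, Krt8, Bicc1, Tead2, Tspan8, Cftr, Umod and Vil1 have exons that overlap a gene on the opposite strand, and Onecut1 shares 2171 bases with Gm20649 on its own strand, so their values carry the same doubt.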

How the data were processed

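Stranded mRNA libraries of 50 tissue pieces were sequenced in pairs. Alignment by the authors used STAR (2 passes) on the mm10 genome, and HTSeq, in its intersection-nonempty mode, made the gene counts with Gencode M6 as annotation. Versions and the strand option are not given in the sources used here. What the authors deposited are whole-number read counts, not normalized, and every row names a gene. Groups came from the sample labels.

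Counts were tested with edgeR 4.0.16 in R 4.3.3 (filterByExpr, TMM, glmQLFit and glmQLFTest, no covariates), on the groups compared, with Benjamini-Hochberg adjustment over all genes tested and calls at 0.05. The fold change is shrunk by edgeR's prior count. Its SE is the log2 fold change divided by the square root of the F statistic. DESeq2 1.42.0 was an alternative, as were library totals without TMM, no count filter, 1 fit of all 6 groups, leaving out single libraries and keeping T1. Dropping N17, or T23 with T24, and refitting the gene lists without N17 or T24, was chosen after seeing the data. Log2 CPM used a prior count of 2, and correlations 100000 resamples of a 2-sided permutation test in Python 3.11.15 with numpy. The smallest p it can give is 1e-05. Scripts were tested on simulated data. No 2 libraries of 1 group were alike within sampling noise (smallest chi-square per gene 12.0, where noise gives about 1). Reads carry no molecular identifiers, so counts are not independent molecules.

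The 8 genes and the gene lists (biliary, progenitor signalling, partners, hepatocyte, macrophage, B cell, neutrophil, fibroblast, endothelial, erythroid, kidney, pancreas, gut or gallbladder) were chosen with earlier results of these data known. The genes named are the 8 members in every comparison. Of the biliary and signalling lists, the 3 called genes with the smallest p in each direction are named. Of the partners, the called genes are named. Of the cell lists, the first 2 markers, where a value touches a result, are named. For each member the 3 most similar genes are named. Slc12a1 and the libraries singled out were chosen after their values were seen. Promoter sequences are RefSeq's on GRCm38.p6. Those of Sox9, Krt19 and Cd24a were not used here.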

Additional observations from a re-analysis of the deposited data

Results flagged for a closer look

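Among the 8 genes in the DEN tumours, 16 sets of libraries (8 genes in 2 groups) were examined for 1 library standing away from all others, by its gap to the nearest of them, which chance gives in about 1 set in 20. There were 3 such values, all in the 8 ALIOS DEN tumours. Sox9 in T24 was at 0.124 CPM, against 5.17 to 10.2 CPM in the other 7 tumours. Cd24a in T24 was at 56.1 CPM, against 2.93 to 10.1 CPM in the others. Prom1 in T23 was at 2.51 CPM, against 25.9 to 48.5 CPM in the others. Krt19 in T24, at 59.7 CPM against no more than 1.66 CPM in the others, did not pass this rule. The gap is judged against the range of the set, which T16 with 0 reads of Krt19 widened. T24 also had the highest summed fibroblast and matrix genes (1194 CPM) and the lowest summed hepatocyte genes (84880 CPM) of its group. Its sums were also the group's highest for the biliary (1980 CPM), progenitor signalling (557 CPM), partner (2470 CPM), macrophage (695 CPM) and pancreas (189 CPM) lists. They were the lowest for the endothelial (82.9 CPM), kidney (0.159 CPM) and gut or gallbladder (120 CPM) lists. T23 had the lowest summed biliary genes of its group (791.5 CPM). The part of these sums in the flagged values was not tested.

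The 2 tumours outside the comparisons also held values above all 12 control livers. In T1, whose library held kidney transcripts, Krt7 was at 33.4 CPM (control livers 0.187 to 1.27), Epcam at 20.7 (0.152 to 0.925), Spp1 at 297.8 (4.76 to 44.6), Cd24a at 67.7 (0.334 to 2.09) and Prom1 at 25.96 (0.0329 to 0.882), scaled by its total count. Krt19 and Krt23 in T1 were at 0.367 and 0.901 CPM, within the control range, and Sox9 was at 0.834 CPM, below the lowest control liver (1.37). In T7 Krt23 was at 22.7 CPM (control livers 0.0986 to 3.09), Sox9 at 7.62 (1.37 to 5.63), Cd24a at 4.61 and Prom1 at 34.4. Neither library has a replicate.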

How the results depend on the processing

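The calls of Krt23, Cd24a, Sox9 and Prom1 in spontaneous tumours, and of Krt23, Cd24a and Prom1 in both DEN comparisons with liver, held under each setting and with each tumour of those comparisons left out. In non-tumour liver 5 members were called, 2 in 1 fit of all 6 groups, 4 without the count filter and 2 to 5 on leaving out single livers (fewer than 4 without N1, N4, N17 or N22), the calls lost being those of Spp1, Cd24a and Prom1. In control diet DEN tumours 5 members were called, and 3 in 1 fit of all 6 groups. The all-group fit called 1 member in ALIOS DEN against spontaneous tumours (Krt19). DESeq2 called 1 member lower in ALIOS DEN tumours against liver (Krt19, -1.13, an outlying count replaced) and 1 lower in the diet difference (Krt23), where leaving out single tumours gave 0 to 1.

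Some directions turned (log2 fold changes). Krt19, which had 3381 reads in T24, turned to -1.23 in ALIOS DEN tumours against liver with T23 and T24 dropped (-1.22 to 2.81 on leaving out single tumours). Against spontaneous tumours it was -0.70 by DESeq2 and -0.72 with both dropped (-0.74 to 3.31), against control diet DEN tumours -0.06 and -0.02 (-0.05 to 4.02), and in the diet difference -0.58 and -0.65 (-0.67 to 3.40). With T1 kept, Krt7 in spontaneous tumours against liver was 1.41. With N17 dropped, Spp1 in ALIOS DEN tumours against liver was 0.01. With T23 and T24 dropped, Cd24a against spontaneous tumours was -0.28 (-0.41 to 0.77), and against control diet DEN tumours Krt23 was 0.10 and Epcam 0.17. With library totals Sox9 against spontaneous tumours was -0.01 (-0.13 to 0.20) and Epcam against control diet DEN tumours 0.06 (-0.25 to 0.12). On leaving out single tumours the other values that crossed 0 were Epcam in spontaneous tumours against liver (-0.17 to 0.15), Krt7 in control diet DEN tumours against liver (-0.31 to 0.39), Krt7 by diet in DEN tumours (-0.51 to 0.27), and in the diet difference Cd24a (-1.27 to 0.03) and Sox9 (-0.03 to 0.41). For genes other than Krt19 the cause was not tested.

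Over all genes, diet in liver gave 1542 calls, 623 in the all-group fit, 949 without N17, 957 without N19 and 2343 without N13. ALIOS DEN against spontaneous tumours gave 0, with 75 by DESeq2, 403 in the all-group fit, 1 with T23 and T24 dropped and 15 without T22. Diet in DEN tumours gave 2, with 155 by DESeq2, 296 in the all-group fit, 1 without the filter 0 with T23 and T24 dropped and 0 to 19 on leaving out single tumours. The diet difference gave 354, with 657 by DESeq2, 220 in the all-group fit 636 with both dropped, 174 without T17, 191 without T18 or T20 and 732 without T24. Library totals moved the share of calls that were higher from 59.9% to 87.1% for diet in liver (69.4% without the filter, 77.8% in the all-group fit), from 50.9% to 72.9% in spontaneous tumours and from 58.3% to 73.9% in ALIOS DEN tumours, where the median log2 fold change of all genes was 0.026, 0.186 and 0.215 in place of -0.022, 0.01 and 0.077. The counts of called pairs moved by at most 1 with DESeq2 size factors. No paired analysis was possible because the library numbers are running numbers and the labels do not tie a tumour to a liver. Counts under 10 in some livers limit the precision of the lowest genes.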
